A study of Mus musculus with 39 samples.

Results

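The Fos and Jun genes and Atf3, the subunits of the AP-1 transcription factor, were followed over 39 one-colour arrays of mouse epididymal adipose tissue, the fat pad beside the testis. Probes were taken by gene name, which gave 8 genes (Fos, Fosb, Fosl1, Fosl2, Jun, Junb, Jund and Atf3) and 10 of the 40628 probes, among 29411 names on the array. The brightest probe by mean stood for each gene, and the second probes of Fosl2 and Junb served as a check. The members were chosen by their normalised signal over all the arrays, since earlier results of these data showed them to separate the arrays into a low and a high set. That separation, and the diet values that follow from it, are therefore given as a description.

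All animals were C57BL/6J mice, randomly allotted after weaning to 5 feeding groups. The low fat group (LFC) took 10% of its calories from fat, and the high fat group (HFC) took 60% from fat on a chow with added sucrose. The HF5, HF20 and HF75 groups ate the HFC chow together with 5, 20 or 75 µg of KAL-1, an aqueous plant formulation. KAL-1 was not given on the low fat diet, so each dose could be set only against HFC. LFC had 11 arrays, from day 1 to week 18, and HFC had 10, from day 6 on. HF5, HF20 and HF75 had 6 each, at weeks 3, 6, 9, 12, 15 and 18. There was 1 array for each diet and time point, the number of mice behind an array was not stated, and time points of a diet stood in for replicates. For diet and dose, time point was a block, so the p-values below rest on how the diet differences spread between time points. Over weeks 3 to 18 that spread was pooled over all 5 diets. For the comparison of late with early arrays they rest on the spread between arrays. The number of arrays limits their precision.

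AP-1 is a dimer of basic leucine zipper proteins that binds DNA and switches on genes of proliferation, wounding and inflammation. Fos, Fosb, Jun, Junb and Atf3 are immediate early genes: their transcription starts within minutes of a growth factor, cytokine or stress signal through the MAP kinases, SRF and CREB, with no new protein needed, and their short-lived mRNAs then decay quickly. In adipose tissue AP-1 takes part in the proliferation of precursor cells and in the response of stromal and vascular cells to inflammation.

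The unit throughout is the normalised signal, the log2 of the scanner's processed intensity minus the 75th percentile of the same array, so that 1 unit is a factor of 2 and 0 is the 75th percentile. The 75th percentile itself lay between 119 and 1515 intensity units. The LFC week 3 and HFC week 12 arrays stood apart from the others. In them 97.1% and 94.5% of spots were well above background and 16431 and 10531 spots were marked as outliers, against 53.7 to 79.6% and 21 to 387 on the other 37 arrays. The median rank correlation of LFC week 3 with the other arrays was 0.694, against 0.902 to 0.952 for those 37. The adipocyte genes Fabp4, Cidec, Adipoq and Pnpla2, the brightest of the adipocyte list, were well above background on all 39 arrays, so the labelled tissue carried its defining markers. They do not speak to other tissue in the samples. The highest values of the epididymis and testis lists were 5.95 for Lcn5 and 5.60 for Prm1.

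The stretches of 250 bases in front of the start sites of Fos, Fosb, Jun and Atf3, the 4 members whose signal separated the arrays without overlap, are shown because these genes moved together over the arrays. They were read from RefSeq on GRCm38.p6, 5′ to 3′ on the strand of the gene, at chr12:85473640-85473889 for Fos on the plus strand and, on the minus strand, at chr7:19310046-19310295 for Fosb, chr4:95052223-95052472 for Jun and chr1:191183334-191183583 for Atf3. Capitals mark matches, on either strand, to the CRE-type motifs TGACNTCA and TGACG, to the AP-1 motif TGACTCA, to the SRF-binding CArG box or to the TATAAA box. TGACG lies within one form of TGACNTCA, and the motifs were chosen after the sequences had been seen.
Fos: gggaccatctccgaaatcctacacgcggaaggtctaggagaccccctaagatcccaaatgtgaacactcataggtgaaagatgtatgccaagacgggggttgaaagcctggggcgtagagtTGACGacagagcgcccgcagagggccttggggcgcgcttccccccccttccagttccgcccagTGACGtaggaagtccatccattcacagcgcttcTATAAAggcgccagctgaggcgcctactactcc
Fosb: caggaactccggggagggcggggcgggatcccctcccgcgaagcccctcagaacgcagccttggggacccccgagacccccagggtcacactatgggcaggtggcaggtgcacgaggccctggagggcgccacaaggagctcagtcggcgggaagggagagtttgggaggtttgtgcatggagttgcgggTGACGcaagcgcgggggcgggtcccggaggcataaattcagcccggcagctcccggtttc
Jun: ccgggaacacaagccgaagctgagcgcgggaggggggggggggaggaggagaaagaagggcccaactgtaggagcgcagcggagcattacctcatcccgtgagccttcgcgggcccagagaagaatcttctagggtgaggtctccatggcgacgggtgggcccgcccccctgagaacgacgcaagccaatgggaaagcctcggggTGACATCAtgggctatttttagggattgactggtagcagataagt
Atf3: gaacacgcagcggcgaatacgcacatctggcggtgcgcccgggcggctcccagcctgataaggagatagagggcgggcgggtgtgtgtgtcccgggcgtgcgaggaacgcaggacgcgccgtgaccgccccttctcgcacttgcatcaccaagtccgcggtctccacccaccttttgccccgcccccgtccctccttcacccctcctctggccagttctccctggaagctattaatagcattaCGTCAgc

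The Fos stretch held TGACG at 129 and at 66 bases before the start, and TATAAA at 33 bases. The Fosb stretch held TGACG at 60 bases, the Jun stretch held TGACATCA at 45 bases, and the Atf3 stretch held TGACG on the opposite strand at 7 bases. Of the other members, Junb had TGACG at 106 bases, Fosl2 and Jund had no match, and Fosl1 was not in the table. Among 32851 promoters of the same length 17.8% held TGACG, 7.49% TGACNTCA, 4.46% TGACTCA, 1.47% the CArG box and 12.4% TATAAA. These matches describe letters in a window and not sites in use.

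The family fell into a low set and a high set of arrays. For each array the signals of the 8 genes, each less its own median over the arrays, were reduced to their median, and the sorted values had their widest gap between HFC week 3 at -2.23 and HFC day 14 at -0.93. That gap of 1.30 on the log2 scale, 2.46-fold, left 11 arrays below it and 28 above it. The lowest array was HFC day 6 at -4.95, the highest was HFC week 6 at 0.85, and the median over the arrays was 0.15. In tissue measured as a whole, fewer cells of a type and less RNA per cell cannot be told apart.

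**Figure D1:**
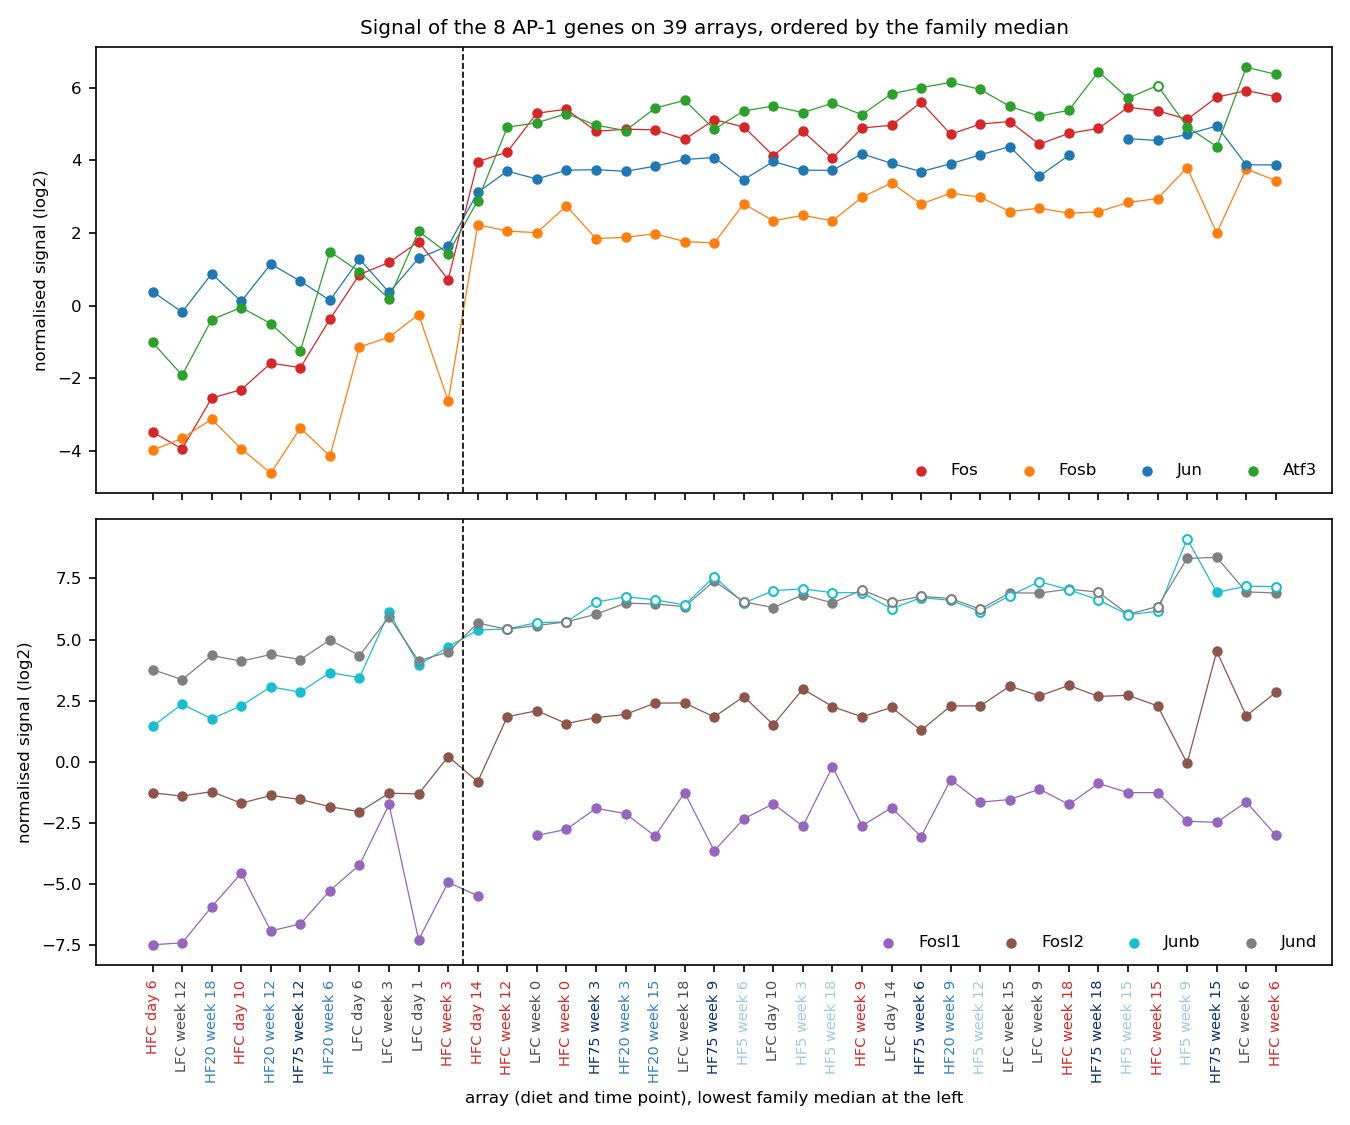
Normalised log2 signal of the 8 members (1 colour a gene, open points saturated) on the 39 arrays, ordered along the x axis by the AP-1 family median and named in the colour of the diet. The dashed line marks the gap after the 11 low arrays, where Fos steps from at most 1.76 to at least 3.97, and arrays of LFC, HFC, HF20 and HF75 stand on both sides.

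The 11 low arrays came from 4 of the 5 diets. They were LFC day 1, day 6, week 3 and week 12, HFC day 6, day 10 and week 3, HF20 weeks 6, 12 and 18, and HF75 week 12. No HF5 array was among them. By time point they were the day 1 array, both day 6 arrays, 1 of the 2 at day 10, 2 of the 5 at week 3, 1 of 5 at week 6, 3 of 5 at week 12 and 1 of 5 at week 18. At day 14 and at weeks 0, 9 and 15 there were none. A low array and a high array thus stood side by side within a diet and within a time point.

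Fos, the classic inducible partner of Jun, had the widest gap of the family with the scaling used here, while with quantile scaling its gap was 1.33, behind Fosb at 1.84, Jun at 1.78 and Junb at 1.39. Its signal on the low arrays was -3.95 at LFC week 12, -3.48 at HFC day 6, -2.55 at HF20 week 18, -2.32 at HFC day 10, -1.71 at HF75 week 12, -1.58 at HF20 week 12, -0.37 at HF20 week 6, 0.72 at HFC week 3, 0.86 at LFC day 6, 1.19 at LFC week 3 and 1.76 at LFC day 1. On the 28 others it lay between 3.97 at HFC day 14 and 5.93 at LFC week 6. No array fell between 1.76 and 3.97, a gap of 2.20 or 4.61-fold. The lowest and the highest Fos signals were both from LFC mice, and they differed by 9.87 on the log2 scale, 938-fold.

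Fosb, a close paralogue of Fos that also pairs with Jun proteins, divided the same arrays. It ranged from -4.61 at HF20 week 12 to -0.25 at LFC day 1 on the 11 low arrays, and from 1.73 at HF75 week 9 to 3.80 at HF5 week 9 on the others. Its gap was 1.97, or 3.92-fold. Fos and Fosb had the same 11 arrays below their own gaps.

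Jun, the founding Jun subunit, which can bind DNA with itself or with a Fos partner, had a gap of 1.47, or 2.78-fold. It ran from -0.18 at LFC week 12 to 1.65 at HFC week 3 on the low arrays and from 3.12 at HFC day 14 to 4.95 at HF75 week 15 on 27 others, with no value for HF75 week 18. Atf3, a stress-induced member that can repress as well as activate, ran from -1.92 to 2.05 on the low arrays and from 2.89 to 6.57 on the others. Its own widest gap, 1.49 or 2.81-fold, lay 1 array higher, between HFC day 14 at 2.89 and HF75 week 15 at 4.38. HFC day 14 was the lowest of the 28 high arrays by the family median and for Fos, Fosl1, Fosl2, Jun, Junb and Atf3.

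Fos, Fosb, Jun and Atf3 were thus the 4 members of 8 that did not overlap between the low and the high arrays. Of 20247 genes detected on at least 20 arrays, 190, or 0.938%, lay wholly lower on the 11 arrays, and 49, or 0.242%, wholly higher. Without LFC week 3 and HFC week 12, Junb and Jund did not overlap either, which made 6 members of 8 beside 270 genes, or 1.33%, wholly lower. Since the members defined the split, nothing is read from their own count.

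**Figure D2:**
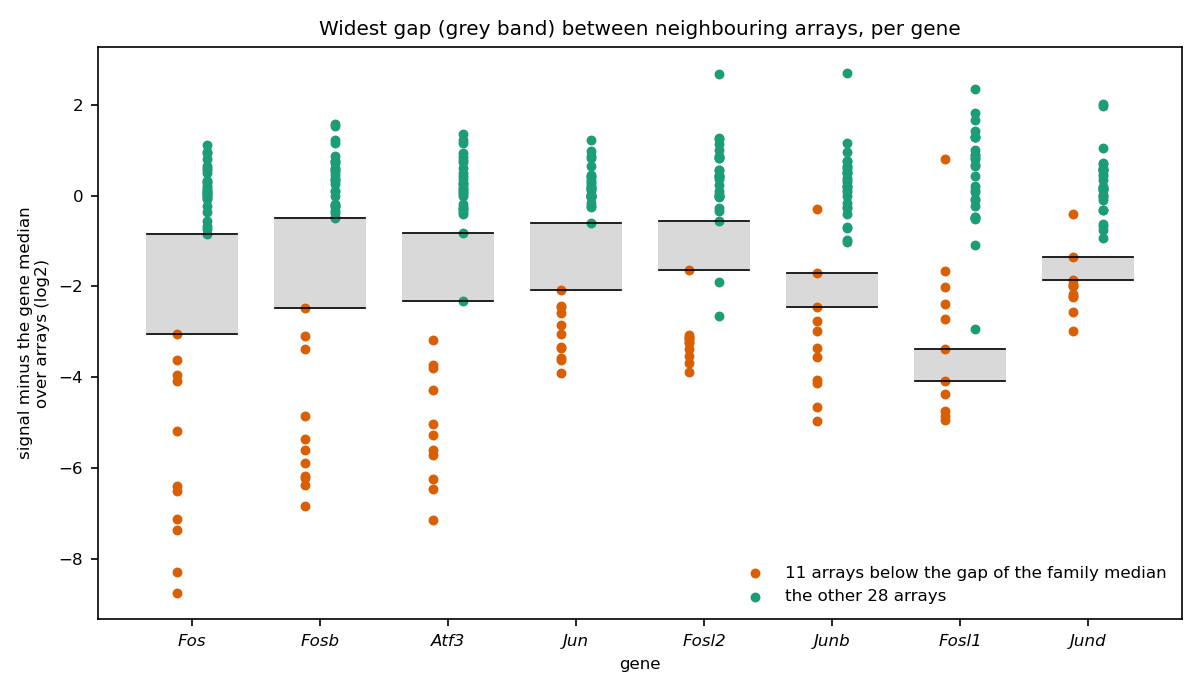
Log2 signal of each member on every array, less the median of the gene over arrays, with the 11 low arrays in orange and the 28 high arrays in green and the widest gap of each gene as a grey band. Fos shows the widest gap, 2.20, and Jund the narrowest, 0.49, while with quantile scaling Fosb (1.84), Jun (1.78) and Junb (1.39) had wider gaps than Fos (1.33).

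The other 4 members were graded. Fosl2, a Fos protein with a role in later and longer responses and in adipose and bone tissue, had its gap of 1.07 between HFC week 3 at 0.22 and HF75 week 6 at 1.29, with 13 arrays below. Besides the 11 these were HFC day 14 at -0.81 and HF5 week 9 at -0.06. Its whole range was -2.04 at LFC day 6 to 4.52 at HF75 week 15.

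Junb, which restrains Jun in many cells, ran from 1.46 at HFC day 6 to 9.11 at HF5 week 9, and its widest gap of 0.74 had 9 arrays below. Jund, the member that resting cells express steadily, ran from 3.37 at LFC week 12 to 8.36 at HF75 week 15, with a gap of 0.49 and 9 arrays below. The Junb spot was saturated on 26 of the 28 high arrays and the Jund spot on 10, and neither on a low array, so the upper ends of both are bounds set by the scanner. The LFC week 3 array reached 6.12 for Junb and 5.93 for Jund, inside the range of the high arrays. Without LFC week 3 and HFC week 12, Junb was at most 4.70 on the low and at least 5.39 on the high arrays, and Jund 4.98 and 5.58.

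Fosl1, the Fos protein best known from invading and proliferating cells, was the dimmest member on the array, well above background on 36 of 39 arrays. Its signal spread from -7.47 at HFC day 6 to -0.20 at HF5 week 18 with no clear break. The widest gap was 0.70, with 5 of 38 arrays below. The low arrays reached -1.74, again at LFC week 3, while the high arrays began at -5.47. Without that array the low arrays reached -4.21, and Fosl1 still overlapped.

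The second Junb probe tracked the first with r = 0.960 over 37 arrays and ran from 0.82 to 8.73. It was saturated on 21 of the 39 arrays and the first on 26, so it is no check of the upper end. The second Fosl2 probe followed the first less closely, with r = 0.759, and ran from -8.61 to 2.35. It was well above background on 35 of the 39 arrays. At HF75 week 15 the Fosl2 probes stood at 4.52 and -4.44, and at HFC day 14 at -0.81 and -5.30, so the highest Fosl2 value rests on 1 probe. With the second probes in place of the first, 12 arrays fell below the gap of the family median, HFC day 14 being the added one.

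Each member followed the median of the other members over the 37 arrays other than LFC week 3 and HFC week 12, with r from 0.855 for Fosl1 to 0.965 for Fos and Jun. Over the 27 high arrays alone r was 0.309 to 0.493. The arrays share a scaling and some share slides, and the high set was divided off on these same values, which narrows their range, so both sets of correlations are descriptions.

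The labels held one feature that ran with the step. The titles of 26 arrays ended in the letter A, of which 1, LFC week 3, was low. Of 6 titles ending in E, all from days 6 to 14, 3 were low, and of the 7 with other endings, 7 were low. These 7 were LFC day 1 and week 12, HFC week 3, HF20 weeks 6, 12 and 18 and HF75 week 12. The labels do not say what the endings mean, the pattern was seen after the values, and its part in the result was not tested.

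Low and high arrays shared slides and scan dates. Of 7 slides with 2 arrays, 2 held a low and a high array scanned on the same date. On one of these Fos was -1.58 at HF20 week 12 and 5.00 at HF5 week 12, and on the other it was -2.55 at HF20 week 18 and 4.06 at HF5 week 18. The slide of LFC week 3 and HFC week 3 held 2 low arrays, and 4 slides held only high arrays. Of the 13 scan dates, 5 had arrays of both sets. The 75th percentile of intensity was 410 to 1472 on the low arrays and 119 to 1515 on the high ones. Without LFC week 3 and HFC week 12 it was 697 to 1472 against 119 to 1276. These ranges overlapped, but the percentile ran higher on the low arrays. Of the low arrays left, all but LFC day 6 had at least 967.5, the value at HFC week 3. Of the high arrays left, only LFC and HFC day 14 and LFC and HFC week 0 did. The percentile is subtracted from every signal. Its part in the step was not tested beyond quantile scaling, which also left 11 arrays below the gap. Without LFC week 3 and HFC week 12, spots well above background were 66.5 to 79.6% on the low and 53.7 to 79.2% on the high arrays.

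Endothelial markers differed with the sets too. The summed level of the 5 endothelium genes was 3.83 to 4.84 on the low arrays and 5.11 to 7.49 on the high ones. Pecam1, Cdh5 and Emcn, 3 of the 5, did not overlap, beside 0.938% of all 20247 genes wholly lower. Cdh5, the cadherin of endothelial junctions, was 1.86 to 3.49 against 3.66 to 6.44. Kdr and Tek overlapped, and all 5 were well above background on every array. The summed adipocyte level overlapped, at 7.81 to 9.02 against 6.57 to 9.82, and so did the macrophage level, at 1.91 to 5.21 against 3.54 to 5.52. The median of the adipocyte list, each gene less its own median, was 0.71 to 1.69 on the low arrays without LFC week 3 and -2.28 to 1.70 on the high arrays. It ran against the family median, with r = -0.609 over 37 arrays, though its genes differed, from -0.784 for Lipe to 0.549 for Fabp4. Without LFC week 3 and HFC week 12 Retn, which encodes the adipokine resistin, lay wholly higher on the low arrays, 1 of the 8 adipocyte genes. The share of all genes wholly higher was not counted for that split, so nothing is read from this gene. The part of cell makeup in the AP-1 values was not tested.

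Other immediate early genes moved with the family. The Egr and Nr4a list, transcription factors induced by the same signals, had array medians of -5.60 to -1.09 on the low arrays and -2.10 to 0.99 on the high ones, each gene taken less its own median. The feedback inhibitors, which shut the MAP kinase and cytokine signals off, had -3.05 to -1.38 against -1.34 to 0.56, and 21 other immediate early genes had -3.32 to -1.52 against -1.44 to 0.82. For both of these lists the sets did not overlap. Without LFC week 3 and HFC week 12, the Egr and Nr4a medians were -5.60 to -2.52 against -2.10 to 0.99 and did not overlap either.

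The lists of AP-1 partners, targets, upstream genes and heat shock genes differed less cleanly. The 13 dimer partners had array medians of -2.62 to -0.30 on the low arrays against -1.19 to 1.03, and the 16 AP-1 target genes had -2.35 to -1.04 against -1.43 to 0.98. The 17 upstream kinases and factors had -1.65 to -0.08 against -0.31 to 0.31, and 6 heat shock genes -2.62 to -0.06 against -1.15 to 1.07. All 4 lists overlapped between the sets. Without LFC week 3 and HFC week 12 they still overlapped, with low arrays down to -1.42 for the partners, -2.33 for the targets, -0.42 for the upstream genes and -1.34 for heat shock.

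Single genes of these lists that lay wholly lower on the 11 arrays were Dusp1 and Dusp5, phosphatases of MAP kinases, Zfp36, which destabilises AU-rich mRNAs, Socs3, an inhibitor of cytokine receptors, Egr1, Ier2, Ier5, Btg2, Myc, Cyr61, the dimer partner Maff and the upstream factor Srf. Among genes detected on at least 20 arrays, that was 4 of 15 feedback inhibitors, 1 of 6 Egr and Nr4a genes and 5 of 21 other immediate early genes. It was also 1 of 13 partners, 1 of 16 upstream genes and none of the AP-1 targets or heat shock genes. Over all 20247 genes the share was 0.938%. No gene of these lists lay wholly higher. Without LFC week 3 and HFC week 12 the counts were 5 feedback inhibitors, 5 Egr and Nr4a genes, 8 other immediate early genes, 1 partner, 1 upstream gene and 1 target, the cytokine Il6. The share over all genes was then 1.33%. Gadd45b, Egr4, Nr4a1, Nr4a2, Nr4a3, Ier3, Csrnp1 and Hbegf joined the genes above.

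**Figure D3:**
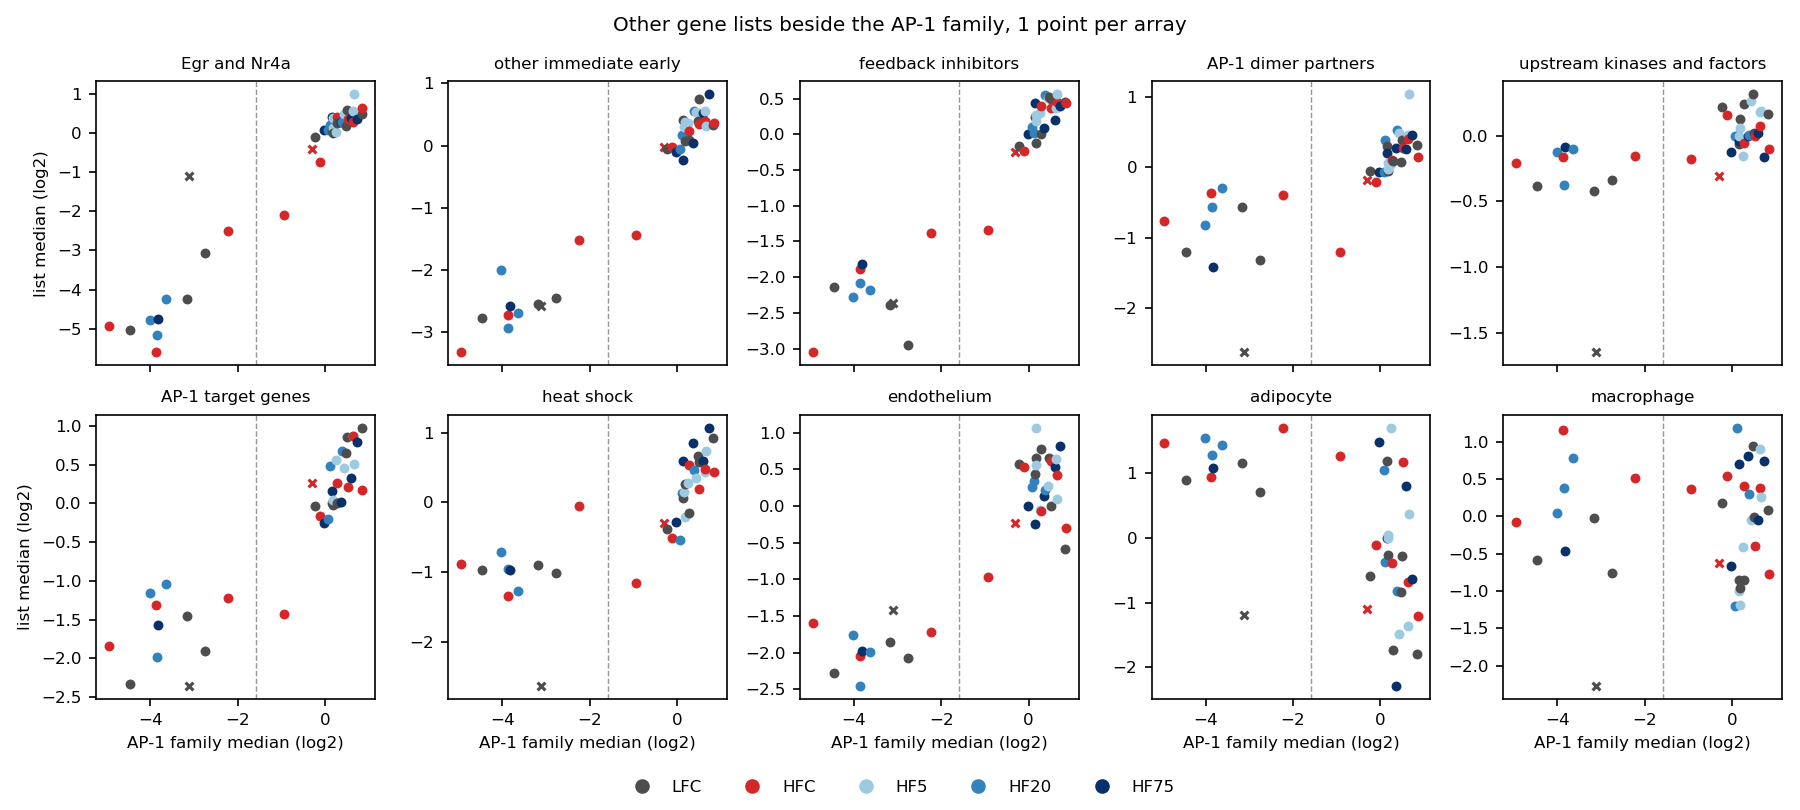
Median log2 signal of 10 gene lists (y axis, each gene less its own median over arrays) against the AP-1 family median (x axis), with 1 point per array coloured by diet, crosses for LFC week 3 and HFC week 12, and a dashed line at the gap. Feedback inhibitors, other immediate early genes and endothelial markers leave a space between the sets, while adipocyte and macrophage markers overlap.

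The 10 genes outside the family most like its median were, in order, Zfp36 with r = 0.988, Nr4a1 with 0.980, Socs3 with 0.976, Cxcl1 with 0.975, Btg2 and Egr1 with 0.970, Csrnp1 and Ier2 with 0.967, and Hspa1a and Il6 with 0.963, over 37 arrays. Of 20229 genes ranked, 137 had r of at least 0.9 and 8 had r of -0.9 or lower. Over the 27 high arrays alone the likeness ran from 0.301 for Btg2 to 0.840 for Zfp36. The chemokine Cxcl1, for example, was -5.24 to -1.42 on the low arrays and -0.41 to 5.77 on the high ones.

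By diet, the medians of the inducible members were close except on HF20. Fosb ran from -3.66 to 3.77 on LFC with a median of 2.01, from -3.99 to 3.44 on HFC with 2.39, from 2.33 to 3.80 on HF5 with 2.82, from -4.61 to 3.10 on HF20 with -0.62, and from -3.37 to 2.80 on HF75 with 1.93. Atf3 ran from -1.92 to 6.57 on LFC with a median of 5.22, from -1.01 to 6.37 on HFC with 5.09, from 4.92 to 5.96 on HF5 with 5.47, from -0.50 to 6.15 on HF20 with 3.15, and from -1.24 to 6.45 on HF75 with 4.92. Jun had medians of 3.57 on LFC, 3.72 on HFC, 3.94 on HF5, 2.42 on HF20 and 3.75 on HF75. HF20, with 3 low arrays among its 6, had the lowest median for each of these genes, and every pair of diets overlapped.

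Junb, Jund, Fosl2 and Fosl1 overlapped between the diets as well. Junb had medians of 6.26 on LFC, 5.58 on HFC, 6.70 on HF5, 5.13 on HF20 and 6.67 on HF75. Its spot was saturated on 7 of 11 LFC, 6 of 10 HFC, 6 of 6 HF5, 3 of 6 HF20 and 4 of 6 HF75 arrays. The Junb medians are therefore partly set by the scanner and are not ranked. For Jund they were 6.31, 5.70, 6.52, 5.72 and 6.85 in the same order of diets, and for Fosl2 they were 1.88, 1.71, 2.48, 0.36 and 1.82. Fosl1 had medians of -1.74, -3.0, -1.99, -4.15 and -2.76. The median of HF20 was the lowest of the 5 diets for Fosl1 and Fosl2. For Jund that of HFC was, close to HF20 and with saturated spots in every diet.

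The first comparison asked whether the high fat diet changed the family, from 10 time points at which LFC and HFC were both measured. By the study's account weeks were counted on from day 14, so day 14 and week 0 stand for the same time on diet, measured in separate arrays. Taking them as 1 time point left all 8 differences without a call. Fos on LFC ran from -3.95 to 5.93 over all 11 arrays with a median of 4.45, and on HFC from -3.48 to 5.76 with a median of 4.49, so the diets overlapped almost wholly. The mean over the paired points was 2.93 ± 3.39 (SD, n = 10) on HFC and 3.25 ± 3.04 (SD, n = 10) on LFC, a difference of -0.32 with a standard error of 1.03. None of the 8 members passed limma's test at an adjusted p of 0.05, and nor did any of 29700 probes (0% called, 3.05% at an unadjusted p of that size).

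The HFC minus LFC difference was -0.45 for Fosb, -0.12 for Fosl2, 0.08 for Jun, -0.64 for Junb, -0.26 for Jund and -0.20 for Atf3. Its median over the 8 members was -0.29, beside 0.03 over all probes tested. Junb was saturated on 6 of the 10 HFC and 7 of the 10 LFC arrays, so the size of its difference was not measured. Fosl1 was the exception in size, at -1.74 with a standard error of 0.46, lower in HFC in 7 of 9 pairs, with limma's unadjusted p of 0.0027 and adjusted p of 0.998. Its size depended on the processing, and it was -0.95 with outlier spots kept, -1.08 with normexp and -1.13 with quantile scaling. With titles ending in A only it was -0.56, but that choice keeps no pair from days 6 to 14, week 3 or week 12. The HFC week 12 spot of Fosl1 was an outlier and dropped from the fit.

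Over weeks 3 to 18 alone, the differences of all members but Jun and Fosl1 stood on the other side of 0. The HFC minus LFC difference was 1.41 (SE 1.27) for Fos, 0.84 for Fosb, 0.79 for Fosl2, 1.01 for Jun, 0.20 for Junb, 0.14 for Jund and 1.37 for Atf3, and -0.82 for Fosl1. The median of the 8 was 0.82, beside 0.06 over all probes. Junb was saturated on 5 of the 6 HFC and 4 of the 6 LFC arrays, so the size of its difference was not measured. None of the 8 and none of 32088 probes passed (0% called, 2.33% at an unadjusted p under 0.05). At week 12 Fos was 4.23 on HFC and -3.95 on LFC, a difference of 8.18, while at the other 5 weeks the difference lay between -0.47 and 0.45. Without week 12 the signs of Fosb, Junb and Jund turned, to -0.13, -0.38 and -0.24.

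**Figure D4:**
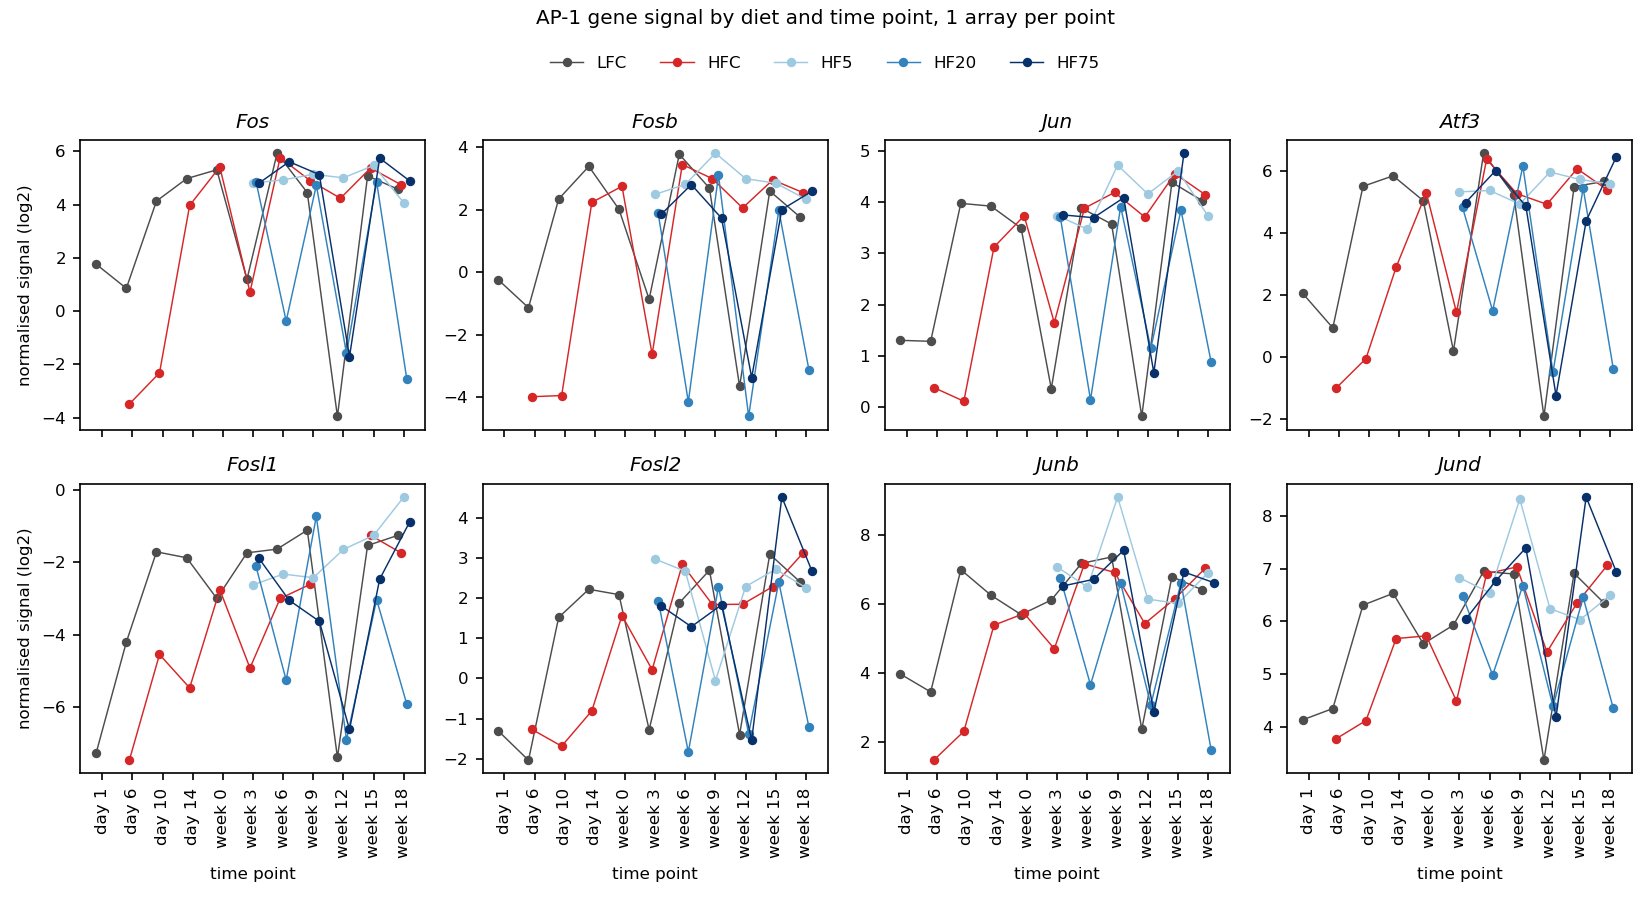
Normalised log2 signal of each AP-1 member at each time point, with a line per diet and 1 array per point. For Fos the low arrays appear as low points on the LFC line at day 1, day 6, week 3 and week 12, where it reaches -3.95, and on the HFC line at day 6, day 10 and week 3.

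The comparisons of HF5, HF20 and HF75 with HFC asked whether KAL-1 altered the family on the high fat diet. They share the HFC arrays, so their values stand side by side without being compared. Of the 5 diets HF5 had the narrowest range for each of the 8 members. LFC and HFC had more arrays, some from earlier times. The Junb range on HF5 has no measured size, as all 6 spots were saturated. Jund was close, from 6.03 to 8.32 on HF5 and from 4.35 to 6.68 on HF20. On HF5 Fos ran from 4.06 to 5.46 with a median of 4.96, and Atf3, Jun and Fosb lay between 4.92 and 5.96, 3.47 and 4.72, and 2.33 and 3.80. The HF5 minus HFC differences of the 8 members were all above 0, from 0.12 for Fosl2 to 1.52 for Fosl1, with 0.61 (SE 1.27) for Fos. Their median was 0.59, beside -0.03 over all probes, and no member and no probe of 32088 passed (0% called, 3.44% at an unadjusted p under 0.05). At week 3, where HFC was low, Fos was 4.81 on HF5 and 0.72 on HFC, a difference of 4.09. At the other weeks the Fos difference lay between -0.83 and 0.77. Without week 3 the signs of Fos, Fosl2 and Atf3 turned, to -0.083, -0.41 and -0.092. Junb was saturated on all 6 HF5 and on 5 of 6 HFC arrays, so its difference has no measured size.

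On HF20 the family was low on 3 of the 6 arrays. Fos was 4.86, -0.37, 4.72, -1.58, 4.84 and -2.55 at weeks 3, 6, 9, 12, 15 and 18, and on HFC 0.72, 5.76, 4.89, 4.23, 5.37 and 4.75. Weeks 6, 12 and 18 were low on HF20, while weeks 3, 9 and 15 lay within the range of the HF5 arrays. The mean was 1.65 ± 3.53 (SD, n = 6) on HF20 and 4.29 ± 1.83 (SD, n = 6) on HFC.

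The HF20 minus HFC difference was -2.63 for Fos (SE 1.27, limma's unadjusted p of 0.048), -2.71 for Fosb (SE 1.18, 0.030), -1.49 for Junb (SE 0.70, 0.042), -2.07 for Atf3, -1.66 for Fosl2, -1.41 for Jun, -0.72 for Fosl1 and -0.65 for Jund. Junb was saturated on 3 of the 6 HF20 and 5 of the 6 HFC arrays, so the size of its difference was not measured. All 8 were below 0, with a median of -1.58 beside -0.07 over all probes. The limma adjusted p was 0.772 for 6 members, 0.775 for Jund and 0.833 for Fosl1, so none passed, nor did any of 32088 probes (0% called, 5.05% at an unadjusted p under 0.05). With only the arrays whose title ends in A, the differences were 0.09 for Fos, -0.10 for Fosb, -0.07 for Jun and 0.69 for Atf3. That choice leaves out the 3 low HF20 arrays and HFC week 3 and was made after the values were seen. Since the endings run with the low and high sets, nothing is read from these differences.

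On HF75 the family was low at week 12 alone. Fos was -1.71 there and 4.80 to 5.74 at the other 5 weeks, against 4.23 on HFC at week 12. The HF75 minus HFC differences were -0.21 (SE 1.27) for Fos, -0.63 for Fosb, 0.18 for Fosl1, -0.26 for Fosl2, -0.25 for Jun, -0.03 for Junb, 0.40 for Jund and -0.67 for Atf3. The median was -0.23, and no member and none of 32088 probes passed (0% called, 1.54% at an unadjusted p under 0.05). Jun at HF75 week 18 was an outlier spot and was dropped. Junb was saturated on 4 of the 6 HF75 and 5 of the 6 HFC arrays, so its difference has no measured size. Without week 12 the sign of Fos turned, to 0.93.

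**Figure D5:**
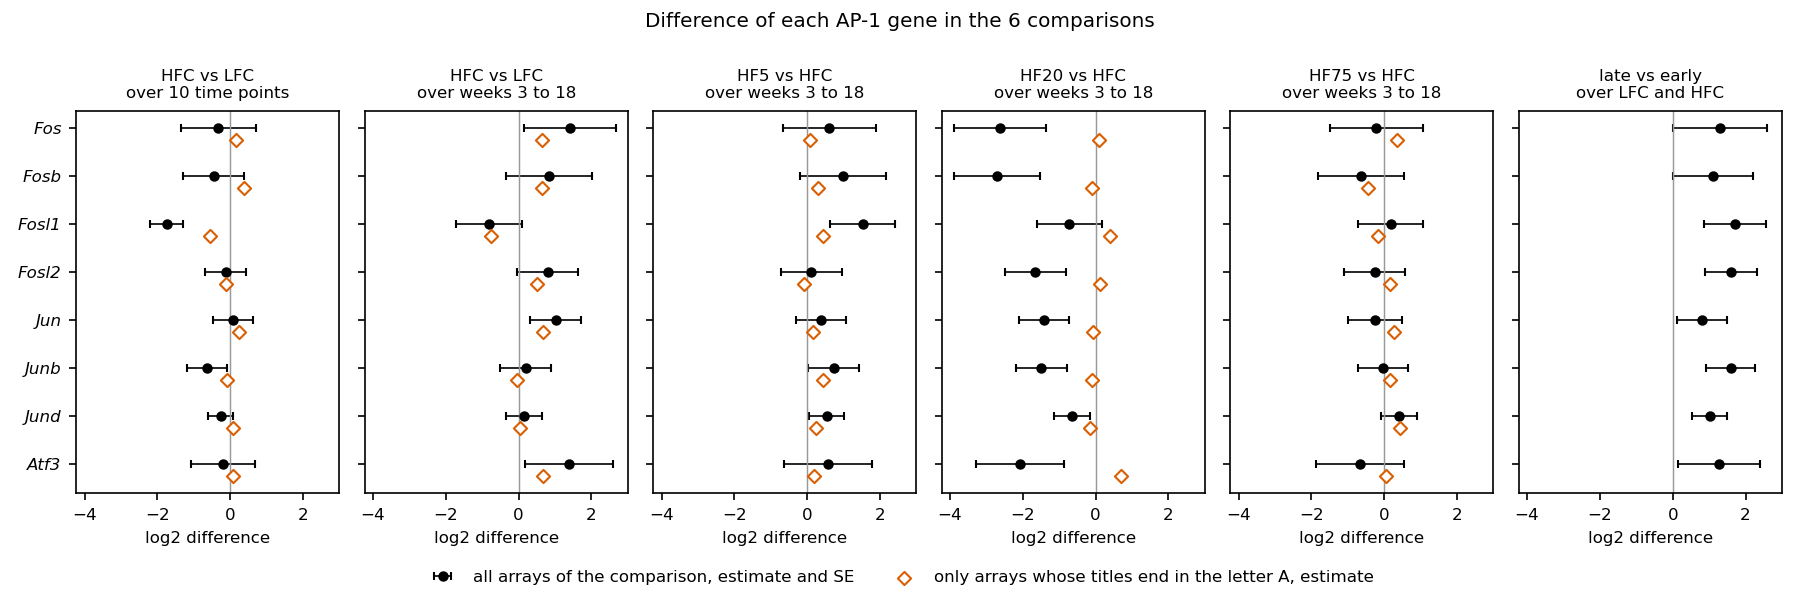
Differences in normalised log2 signal for the 8 members in each of the 6 comparisons, with bars of 1 standard error from limma and open diamonds for the arrays whose title ends in A, not drawn for late against early. Of the 26 arrays with that ending 1 was low, so nothing is read from the diamonds. The HF20 minus HFC differences all lie below 0, down to -2.71 for Fosb, and no member passed the adjusted test in any comparison.

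The last comparison asked whether the family changed with time on the diets, from 12 late arrays of LFC and HFC (weeks 3 to 18) and 9 early arrays (days 1 to 14 and week 0). The late minus early difference was above 0 for all 8 members: 1.70 for Fosl1 (SE 0.85), 1.60 for Fosl2 (SE 0.71), 1.59 for Junb (SE 0.68), 1.31 for Fos (SE 1.29), 1.28 for Atf3, 1.11 for Fosb, 1.02 for Jund (SE 0.48) and 0.80 for Jun. Their median was 1.30, beside -0.02 over all probes. Junb went from 4.58 ± 1.89 (SD, n = 9) to 6.14 ± 1.43 (SD, n = 12), and Fosl2 from 0.03 ± 1.77 to 1.63 ± 1.59 at the same n.

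None of the 8 members was called, with limma's adjusted p at 0.190 for Junb, 0.201 for Fosl2 and 0.230 for Jund, while 1040 of 30723 probes, or 3.39%, passed, 369 (1.2%) higher and 671 (2.18%) lower. Among the early arrays 4 of 9 were low, and among the late ones 3 of 12. Early and late arrays were scanned on different dates, which cannot be told apart from time. Junb was saturated on 9 of the 12 late and 4 of the 9 early arrays. Arrays of both diets share a time point, and with time point as a random block 566 probes passed and Junb had a difference of 1.74 (adjusted p of 0.223). Leaving out week 12, with LFC at -3.95 for Fos, gave Junb 2.06 (adjusted p of 0.0433) and Jund 1.38 (0.0499) by the same test. In that setting 1923 of 30723 probes passed, 757 of them higher late. With week 0 as the only early point the sign turned for Fos (-1.77), Fosb, Fosl2, Jun and Atf3.

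Of the other lists, the neutrophil gene S100a9 rose late by 1.88 (SE 0.49, limma's adjusted p of 0.0349), 1 of 4 neutrophil markers. No gene of the dimer partner, upstream, feedback, Egr and Nr4a, other immediate early, heat shock or remaining marker lists passed in any of the 6 comparisons. Whether HFC and LFC differed in their change from early to late was tested as an interaction, and 0 of 30723 probes and none of the members passed, with an adjusted p of 1.00 for the members. Within HFC the late minus early differences of the members were 1.39 to 3.39, within LFC -0.53 to 1.17, and none passed in either.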

How the data were processed

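RNA of epididymal adipose tissue was labelled for one-colour Agilent arrays. The deposited scanner files hold the processed signal intensity of each spot, with flags for outliers, saturation and signal above background. The file headers name Feature Extraction 10.5.1.1, and the submitters' processing notes name version 9.1. Values of the week 9 files were rounded to 3 digits. A table for the whole series holds the authors' own log2 fold changes against LFC at matched times and was not used.

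From the intensity, log2 minus the array's 75th percentile was taken, spots marked as outliers were dropped and replicate spots averaged. The probe minimum was a signal well above background on 10 of 20, 6 of 30 or 9 of 21 arrays of a fit. Differences were fitted with limma 3.58.1 in R 4.3.3, with time point as a block (for late against early, diet as a term), two-sided, with Benjamini-Hochberg adjustment over all probes at 0.05. Time points pair the diets because arrays of a time point come from mice fed for the same time. The methods' t-test was an alternative, as were the background correction, the scaling, the filters, slide, scan date and time point as other blocks, and each time point left out. The fits and the gap search were tested on simulated data. Tables were made with Python 3.11.15, pandas 2.3.3, numpy 2.4.6 and matplotlib 3.10.9. No column of an unlisted sample was present.

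Named were all 8 members, of each other list the genes that passed or else up to 4 of the brightest, and the 10 genes most like the family median. Genes of the lists with no overlap were added after their values were seen. One result among the AP-1 target genes is not reported here. Members and lists were chosen with earlier results of these data known.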

Additional observations from a re-analysis of the deposited data

Results flagged for a closer look

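In HF75, week 12 lay far below the other 5 weeks for 4 members. Fos was -1.71 there, against a mean of 5.23 ± 0.42 (SD, n = 5) at the other weeks, and Fosb was -3.37 against 2.19 ± 0.47. Junb was 2.85 against 6.87 ± 0.42, and Atf3 was -1.24 against 5.33 ± 0.86. In HF5, week 9 stood apart for 3 members, with Fosl2 at -0.055 against 2.59 ± 0.30, and with Junb at 9.11 against 6.53 ± 0.46 and Jund at 8.32 against 6.43 ± 0.30. The 75th percentile of that HF5 array was 119 intensity units, the lowest of the 39, and its Junb spot was saturated, as it was on all 6 HF5 arrays, so the difference in Junb has no measured size. The percentile is subtracted, so a spot at the scanner's limit reads higher on an array where the percentile is lower. The Junb value at week 9 is therefore not read as a difference. The part of the low percentile in the Fosl2 and Jund values was not tested. Lone extreme arrays were looked for in HFC, HF5, HF20 and HF75, and LFC, with 11 arrays, was not examined. Of 32 sets of a gene and a diet examined for a lone extreme array, 7 were picked out in this way, while chance alone picks out about 1 in 20 of independent sets. The members of an array are not independent, and 4 of the 7 are the HF75 week 12 array, so the count is not read against chance.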

How the results depend on the processing

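The number of arrays below the gap of the family median was 11 with outlier spots kept, with quantile scaling and with any 1 member left out, 8 with normexp, 10 of 37 without LFC week 3 and HFC week 12, and 12 with the second probes. The 5 comparisons of diet or dose called 0 probes under every alternative run, the methods' t-test and scan date as a block included. The diet and dose differences of the members were never past the threshold, and in 69 of 715 recomputed values their sign turned, as it did in 9 of 183 for late against early. The diet and dose values include those with titles ending in A only, a choice made after the values were seen. The differences are bounded by 1 array per point, and for Junb by saturation.

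The count of 1040 probes in late against early fell to 656 with outlier spots kept, 566 with time point as a random block, an alternative chosen after seeing the data, 36 with normexp, 152 with LFC arrays only, and 0 with HFC arrays only (5170 at an unadjusted p under 0.05 by limma) or with week 0 as the only early point (936). When a single time point was dropped the count ranged from 297 (day 6) to 3055 (week 0). The cause was not tested.

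For time point as the replicate block, which pairs the diets, dropping the block turned 1 sign, Fosl1 in HF75 minus HFC, to -0.39, and gave 0 called probes in each comparison.

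In HFC minus LFC over 10 time points, signs turned as follows. Jund was 0.014 with normexp and Fosl2 0.20 with quantile scaling. Jun was -0.00060 with slide as a random block, -0.058 with scan date as a block and -0.55 without LFC week 3 and HFC week 12. With titles ending in A only, an alternative chosen after seeing the data, Fos was 0.17, Fosb 0.37, Jund 0.080 and Atf3 0.082. That alternative leaves out most low arrays, here and below, so nothing is read from its values. With 1 time point left out, Fos ran from -1.27 to 0.36, Fosb from -1.13 to 0.20, Fosl2 from -0.50 to 0.22, Atf3 from -0.98 to 0.40 and Jun from -0.35 to 0.51.

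In HFC minus LFC over weeks 3 to 18, without LFC week 3 and HFC week 12, Fosb was -0.19, Fosl2 -0.13, Junb -0.17, Jund -0.0092 and Atf3 -0.012. With titles ending in A only, Junb was -0.050. With 1 week left out, Fosb ran from -0.13 to 1.36, Junb from -0.38 to 0.52 and Jund from -0.24 to 0.46.

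In HF5 minus HFC, Fosl2 was -0.039 with quantile scaling and -0.086 with titles ending in A only. With 1 week left out, Fos ran from -0.083 to 0.90, Fosl2 from -0.41 to 0.52 and Atf3 from -0.092 to 0.89. In HF20 minus HFC, titles ending in A only gave Fos 0.094, Fosl1 0.38, Fosl2 0.12 and Atf3 0.69. With 1 week left out Fosl1 ran from -1.55 to 0.0069, while Fos ran from -3.99 to -1.70.

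In HF75 minus HFC, outlier spots kept gave Fosl1 -0.63, and quantile scaling gave Jund -0.0032. With normexp Fos was 0.0097, Fosl1 -0.073, Jun 0.034 and Junb 0.0078. With slide as a random block Junb was 0.054, and with scan date as a block Fos was 0.12, Fosl2 0.11 and Junb 0.13. Without LFC week 3 and HFC week 12, Fos was 0.58, Fosb 0.074, Fosl2 0.11, Jun 0.10, Junb 0.28 and Atf3 0.056. With titles ending in A only, Fos was 0.36, Fosl1 -0.18, Fosl2 0.17, Jun 0.26, Junb 0.15 and Atf3 0.051. With 1 week left out, Fos ran from -1.07 to 0.93, Fosb from -1.65 to 0.33, Fosl1 from -0.51 to 0.52, Fosl2 from -0.76 to 0.36, Jun from -0.78 to 0.39, Junb from -0.41 to 0.48 and Atf3 from -1.51 to 0.43.

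In late minus early, LFC arrays only gave Fos -0.53, Fosb -0.22, Jun -0.12 and Atf3 -0.34, where HFC arrays only gave 3.39, 2.63, 1.85 and 3.13. Week 0 as the only early point gave Fos -1.77, Fosb -0.91, Fosl2 -0.20, Jun -0.43 and Atf3 -0.94. With 1 time point left out, Junb ran from 0.97 to 2.06 and Jund from 0.71 to 1.38. Both passed without week 12, where 1923 of 30723 probes passed.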
